A study of Danio rerio with 18 samples.

Results

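The fatty acid binding proteins are small proteins of the cytosol that hold a fatty acid, a bile acid or another lipid inside a barrel-shaped pocket. The 10 genes described here were chosen by name (fabp1a, fabp1b.1, fabp2, fabp3, fabp6, fabp7a, fabp7b, fabp10a, fabp11a and fabp11b), and they are read by 18 of the 43603 probes of the array. RNA was taken from the liver of 18 adult zebrafish of the AB, Tuebingen (TU) and WIK strains, with 3 males and 3 females of each, and 1 fish was hybridized to each one-colour array. All fish were untreated and wild-type by strain, came from embryos of one stock center, had been kept for 2 generations in one facility, and were between 12 and 18 months old by the sample labels. The livers of AB were taken in the morning and those of TU and WIK in the afternoon, so strain and time of day cannot be told apart. The questions of the study were how the sexes differ within a strain and how the strains differ within a sex.

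As background, these proteins take up lipids that enter a cell and carry them to membranes, to enzymes and to nuclear receptors, and each type is named for the tissue in which it was first found. The zebrafish liver uses fabp10a, a bile acid binding form that mammals lack, where the mammalian liver uses the FABP1 protein. In zebrafish, fabp1b.1, fabp2 and fabp6 are genes of the intestine, fabp7a and fabp7b are the brain type, fabp3 is the heart type, and fabp11a and fabp11b (fabp4a and fabp4b in the RefSeq gene table) belong to a fish group related to the adipocyte type.

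Each gene is given at its reference probe, the brightest of its probes on average, as log2 normalized intensity. In this measure 6 of the 10 genes (fabp1b.1, fabp2, fabp3, fabp7a, fabp10a and fabp11a) were well above background on all 18 arrays, as 36% of all probes were. The gene fabp7b passed on 15 arrays, fabp6 on 7, fabp1a on 5 and fabp11b on 2. For the 6 genes with several probes the probes followed each other over the 18 arrays with a Pearson correlation of 0.936 to 0.999. Per array, 44.9% to 67.3% of spots were well above background and none of the spots was saturated. The 9 genes of the oestrogen response and sex check (the vitellogenins, esr1 and hsd17b3) separated the labelled sexes in AB and WIK with all 9 called. The library labelled TU female 3 stood apart from the other females: 4 of these 9 genes (vtg1, vtg2, vtg3 and hsd17b3) lay within the range of the males, and the other 5 lay between the males and the other females. Its vtg1 signal was 7.31 against 16.45 to 17.02 in the other TU females and its signal of hsd17b3, a gene higher in males, was 10.9 against 5.96 and 6.09, whereas its signal of the oestrogen receptor gene esr1 was 9.05, against 6.53 to 7.08 in males and 11.19 to 13.32 in the other females. Its log2 summed signal of the 5 erythrocyte markers was 18.91, against 13.63 to 17.12 in the other 17 fish. The sex differences over the strains are given with and without it.

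The same-numbered male and female of a strain lay on one slide and were scanned on one day, so each strain holds 3 male-female pairs. A gene was called when limma's moderated test gave a Benjamini-Hochberg adjusted p of at most 0.05 over all probes and the difference was at least 2-fold.

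**Figure D1:**
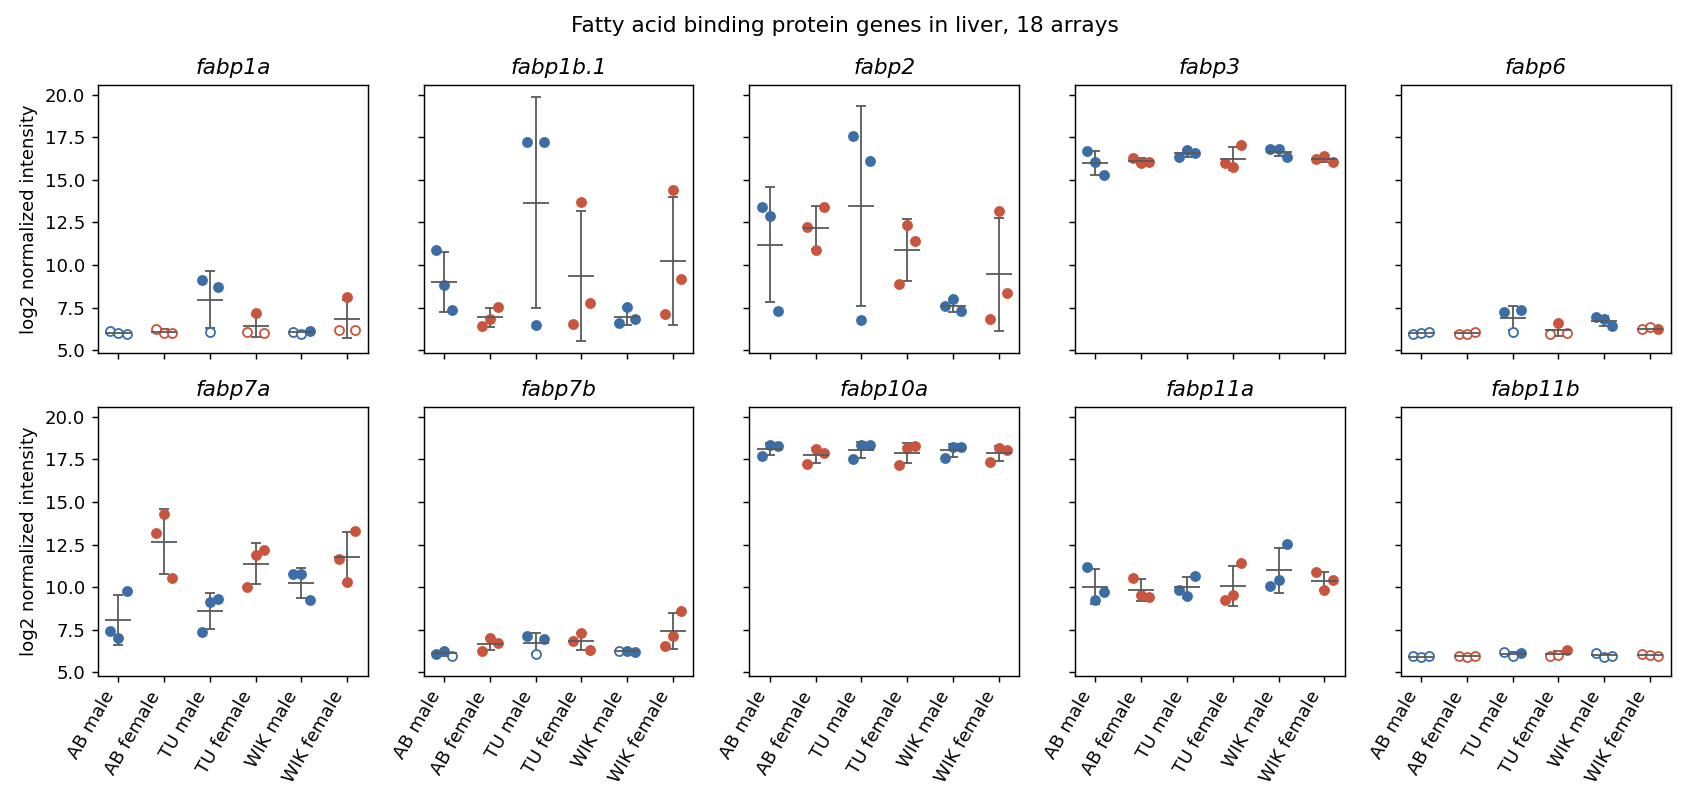
Log2 normalized intensity (y axis, shared by all panels) of the 10 fatty acid binding protein genes in the 6 groups of 3 fish (x axis, replicates 1, 2 and 3 from left to right within a group). Filled points are well above background and open points are not, and bars give the mean and the SD of the 3 fish. The log2 range over the 18 arrays was 10.84 for fabp1b.1 and 1.16 for fabp10a.

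The brain-type gene fabp7a had a higher mean in females than in males in all 3 strains, and it was the only one of the 10 genes called for sex when the strains were averaged. In AB males its log2 signals were 7.44, 7.01 and 9.76, and in AB females they were 13.2, 14.28 and 10.57. In TU males they were 7.4, 9.13 and 9.32, and in TU females 10.01, 11.92 and 12.21. In WIK males they were 10.75, 10.8 and 9.24, and in WIK females 11.64, 10.3 and 13.32. Every female lay above every male in AB, as 12% of all probes did, and in TU, as 4.52% did, whereas the groups overlapped in WIK because WIK female 2 lay below WIK males 1 and 2. Within the pairs on one slide, the female was higher in 8 of 9. TU female 3, whose vitellogenin and esr1 signals were low, had 12.21 and so stood with the females for this gene. The groups in order of their mean were AB females (12.68 ± 1.91, SD, n = 3), WIK females (11.75 ± 1.51), TU females (11.38 ± 1.19), WIK males (10.26 ± 0.89), TU males (8.62 ± 1.06) and AB males (8.07 ± 1.48). Only the step of 1.64 between WIK and TU males was larger than the SD of both of its neighbours.

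Averaged over the 3 strains in 1 fit of all 18 arrays, an average that was added after the data had been seen, fabp7a differed by -2.95 log2 units between males and females (SE 0.61, 95% interval -4.27 to -1.64, limma, adjusted p = 0.0111). That is a 7.75-fold higher signal in females. It was 1 of 10 genes called, beside 2.08% of all probes called and 1.17% called as higher in females. At an unadjusted p under 0.05 fabp6 and fabp7b passed too, beside 21% of all probes. Its other probes gave -2.7 and -2.49 log2 units (limma, adjusted p = 0.0113 and 0.0162). Without the fish whose label was in doubt, TU female 3, the difference was -2.82 (limma, adjusted p = 0.0124). With the pairs as a block it was -2.95 (SE 0.71, limma, adjusted p = 0.0445). The call was lost with arrays scaled to their medians (-2.29, limma, adjusted p = 0.0555). It was also lost without the 4 fish with the highest mean log2 signal of the enterocyte markers vil1, cdx1b, cdh17 and slc15a1b (-2.94, limma, adjusted p = 0.0831). This removal was added after the data had been seen and used 4 of the 9 enterocyte markers. The 4 fish are also those with the highest fabp1b.1.

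Fitted strain by strain, the sex difference of fabp7a was -4.61 in AB (SE 1.18, limma, adjusted p = 0.124), -2.76 in TU (SE 0.79, adjusted p = 0.932, and -2.35 with an adjusted p of 0.345 without TU female 3) and -1.49 in WIK (SE 0.84, adjusted p = 0.504). None of the 10 genes was called in AB, where 2.02% of all probes were, in TU, where 0% were, or in WIK, where 1.37% were. At an unadjusted p under 0.05, 17.6% of all probes passed in AB, 4.1% in TU and 15% in WIK. The genes that passed at that level were fabp7a and fabp7b in AB, fabp7a in TU, and fabp3 and fabp6 in WIK. For AB, fabp7a was called when the spread was estimated from all 18 arrays (limma, adjusted p = 0.0206). The sex difference of fabp7a was larger in AB than in WIK by 3.12 log2 units (interaction -3.12, SE 1.5, 95% interval -6.34 to 0.1, limma, adjusted p = 0.526), an interval that holds 0. No gene of the family was called for an interaction by limma, beside 0.319% of probes for AB against TU, 0.355% for AB against WIK and 0.0688% for TU against WIK. At an unadjusted p under 0.05 fabp1a passed for TU against WIK, where 6.61% of probes did, and none of the 10 passed for the others, where 10.2% and 9.88% did.

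Markers of other cells were read beside fabp7a. Of the brain and glia markers, olig2 and elavl3 were well above background on none of the arrays, snap25a on 1 and sox10 on 3, while gfap was on 10 and ran between 5.92 and 6.46 over the 18 arrays. The mean of gfap was higher in females in each strain, as that of fabp7a was, by a male minus female difference of -0.18 over the strains (SE 0.07, limma, adjusted p = 0.136), which was not called. The summed signal of the 3 brain markers well above background on any array ran between 7.58 and 7.78 over the 18 arrays on the log2 scale. Ovary markers were higher in some females: their summed log2 signal was 9.42 to 13.92 in WIK females, 8.67 to 10.85 in TU females and 8.97 to 9.05 in AB females, against 8.61 to 8.86 in males, and gdf9 was well above background on none of the arrays. Of the 7 ovary markers on the array 1 was called for sex over the strains, the egg coat gene zp3b (-1.74, SE 0.26, limma, adjusted p = 0.00144). The highest fabp7a signals were in AB female 2 (14.28), WIK female 3 (13.32) and AB female 1 (13.2). Their summed ovary signals were 9.05, 9.42 and 8.97, each above those of all males, though the AB values lay close to them. Of the 6 summed ovary markers 3, 3 and 2 were well above background in these females, against 4 in AB male 3 (8.86). WIK female 1, with the highest ovary signal (13.92), had a fabp7a of 11.64. Of 9 hepatocyte genes, 4 were called as higher in males, of which apobb.1, fga and fgb were not called with the scanner's processed signal (limma, adjusted p = 0.127, 0.0873 and 0.952). Without TU female 3, cp and ambp were also called as higher in males. The part of brain, ovary or hepatocyte RNA in the fabp7a difference was not tested.

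**Figure D2:**
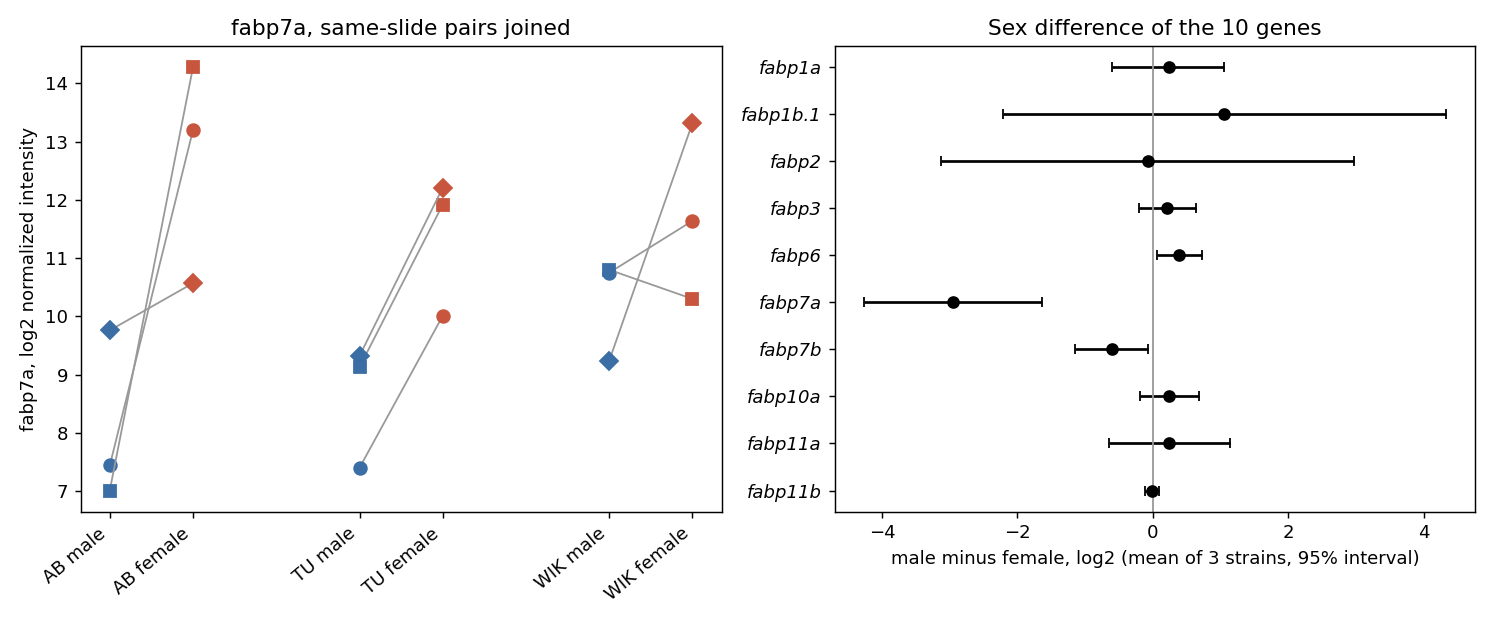
Left, log2 normalized intensity of fabp7a in the 3 strains, with the male (blue) and female (red) of a slide joined by a line and replicates 1, 2 and 3 drawn as circles, squares and diamonds. Right, male minus female difference of each gene on the log2 scale, averaged over the 3 strains, with its 95% interval from limma. The line fell from female to male in 8 of 9 pairs, and the interval of fabp7a was the one farthest from 0.

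Its duplicate fabp7b was dim. In AB males its signals were 6.1, 6.27 and 5.98, and in AB females 6.28, 7.02 and 6.71. In WIK males they were 6.28, 6.25 and 6.17, and in WIK females 6.55, 7.11 and 8.62. Every female lay above every male in AB, as 12% of all probes did, and in WIK, as 8.4% did, and in TU the sexes overlapped. In AB the lowest female (6.28) and the highest male (6.27) nearly met. The female was higher in 7 of 9 pairs, and the mean difference over the strains was -0.61 (SE 0.25, 95% interval -1.15 to -0.08, limma, adjusted p = 0.171), which was not called, nor was it without TU female 3 (-0.7, limma, adjusted p = 0.104). Over the 18 arrays fabp7a and fabp7b had a Pearson correlation of 0.39.

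The intestinal genes fabp1b.1 and fabp2 varied most among individual fish. The log2 range of fabp1b.1 over the 18 arrays was 10.84 and that of fabp2 was 10.78, whereas 0.502% of the 36027 probes well above background on at least 1 array had a range of 8 or more. For fabp1b.1, which binds fatty acids in enterocytes, TU males had 17.24, 6.51 and 17.24, and TU females had 6.55, 13.7 and 7.8. WIK females had 7.1, 14.42 and 9.18, and WIK males 6.58, 7.51 and 6.85. AB males had 10.88, 8.81 and 7.38, and AB females 6.4, 6.83 and 7.55. The 4 highest fish were thus TU males 1 and 3, WIK female 2 and TU female 2, from 3 groups, each of which also held a fish at or below 7.1. Within TU males the highest and the lowest signal were 1700-fold apart.

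For fabp2, the fatty acid binding protein of the absorptive intestine, TU males had 17.55, 6.77 and 16.08, and TU females had 8.88, 12.37 and 11.39. AB males had 13.42, 12.87 and 7.31, and AB females 12.23, 10.9 and 13.42. WIK males had 7.61, 7.98 and 7.28, and WIK females 6.84, 13.18 and 8.36. TU males 1 and 3 were again the highest, but 5 of the 6 AB fish lay between 10.9 and 13.42 and 5 of the 6 WIK fish lay at or below 8.36. AB fish had this signal of fabp2 at a fabp1b.1 of 6.4 to 10.88, so the 2 genes shared their highest fish and not the order of the rest. Averaged over the strains, the sexes differed by 1.05 for fabp1b.1 (95% interval -2.22 to 4.33, limma, adjusted p = 0.747) and by -0.08 for fabp2 (95% interval -3.13 to 2.97, adjusted p = 0.985), and these intervals leave room for differences of several log2 units in either direction. Without TU female 3 the values were 0.8 and 0.01.

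The gene fabp1a was well above background only in TU male 1 (9.13), TU male 3 (8.72), WIK female 2 (8.15), TU female 2 (7.17) and WIK male 3 (6.12), and all other fish lay between 5.96 and 6.26. The first 4 of these were the 4 fish with the highest fabp1b.1. For fabp6, which carries bile acids in the ileum, TU males 1 and 3 had 7.25 and 7.35, WIK males had 6.93, 6.84 and 6.4, TU female 2 had 6.59 and WIK female 3 had 6.22, and none of the 6 AB fish was well above background. In WIK every male lay above every female for fabp6, as 12.2% of all probes did, and its sex difference over the strains was 0.39 (SE 0.16, limma, adjusted p = 0.161) and 0.37 without TU female 3. Over the 18 arrays fabp1b.1 had a Pearson correlation of 0.94 with fabp1a, 0.78 with fabp2 and 0.66 with fabp6. These are descriptions over fish that share slides and a normalization. The neighbouring copy of fabp1b.1, fabp1b.2, had no probe named for it, and whether the fabp1b.1 probes also bind it was not tested.

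Most enterocyte markers, though not their summed signal, were highest in the same fish. Of the 9 enterocyte markers on the array, 5 (vil1, cdx1b, cdh17, slc15a1b and anpepb.1) had their 4 highest signals in exactly these 4 fish. The remaining markers shared fewer of these fish among their 4 highest: apoa4a 3, apoa4b.1 and apoa4b.2 2 each, and alpi.1 1. The highest apoa4b.1 signal was in TU female 3. Of 9 hepatocyte and 14 exocrine pancreas markers none had its 4 highest signals in exactly these fish. The share of all probes with this pattern was not counted. For cdx1b the lowest of these 4 signals was dim, with 6.48 against at most 6.05 in the other fish. The signal of vil1, the microvillus protein villin, was 13.88 in TU male 1, 13.64 in TU male 3, 10.89 in WIK female 2 and 10.51 in TU female 2, and at most 7.83 in the other 14. The signal of slc15a1b, the peptide transporter of the gut, was 12.36, 10.61, 10.05 and 9.23 in these fish and at most 7.43 in the others. The bile acid regulator nr0b2a also had its highest signals there, with 14, 12.08, 11.41 and 10.12. The mean log2 signal of all 9 markers was 11.94 in TU male 1, 11.71 in TU male 3, 9.82 in WIK female 2 and 9.19 in TU female 2, and at most 8.91 in the others. The log2 of their summed signal did not separate the same fish: it was 17.2 and 17.46 in TU males 1 and 3 but 15.15 in WIK female 2 and 13.87 in TU female 2, against 13.26 to 16.71 in the other 14. By group the summed signal ran from 14.05 to 15.24 in AB males, 14.3 to 15.35 in AB females, 14.84 to 17.46 in TU males, 13.26 to 16.71 in TU females, 13.76 to 15.38 in WIK males and 13.66 to 15.34 in WIK females, so all 6 groups overlapped. The part of enterocyte RNA in the levels of these 4 genes was not tested, and in a bulk sample more cells of a type cannot be told apart from more RNA per cell.

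**Figure D3:**
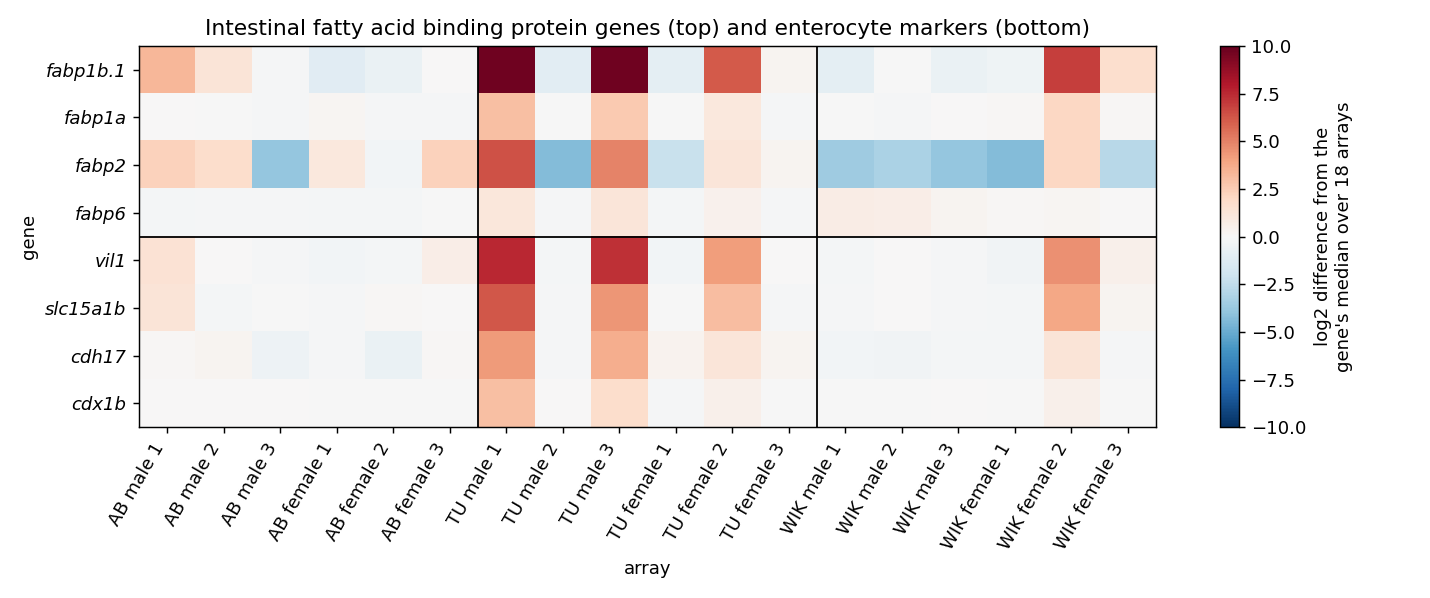
Difference of each gene's log2 signal from its own median over the 18 arrays (colour), with 1 column for each fish and 1 row for each gene. The upper 4 rows are fatty acid binding protein genes and the lower 4 are enterocyte markers. These markers are all among the 5 of 9 with their 4 highest signals in the same fish as fabp1b.1. TU male 1, TU male 3, TU female 2 and WIK female 2 hold the highest values in fabp1b.1, fabp1a and the 4 markers, and the fabp2 row is also red in AB fish. The colour is faint where these values are low, as for WIK female 2 in cdx1b (6.48) and TU female 2 in fabp1a (7.17).

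The strains were compared within each sex by an F test over the 3 pairwise differences. None of the 10 genes was called among males, where 3.51% of all probes were, or among females, where 4.47% were, or over both sexes, where 6.74% were. At an unadjusted p under 0.05 fabp1a passed among males and fabp6 over both sexes, beside 22.5% and 30.8% of all probes, and none of the 10 passed among females, beside 20.5%. The other fabp7a probes also passed among males (F test, unadjusted p = 0.0141 and 0.0367), where its reference probe did not (0.083). For fabp1b.1, AB lay below TU by 3.53 log2 units over both sexes (difference -3.53, SE 1.86, 95% interval -7.54 to 0.48, limma, adjusted p = 0.257). For fabp2, AB lay above WIK by 3.15 (SE 1.73, 95% interval -0.58 to 6.88, adjusted p = 0.283) and TU above WIK by 3.63 (SE 1.73, adjusted p = 0.314).

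The counts among males and over both sexes rested on 1 fish, whereas the count among females stayed at 0 with any fish left out. Without TU male 2, whose fabp1b.1 and fabp2 signals were 6.51 and 6.77, 4 of the 10 genes were called among males (fabp1a, fabp1b.1, fabp2 and fabp6), beside 6.42% of all probes, and 3 were called over both sexes (fabp1a, fabp1b.1 and fabp2), beside 7.92%. In males fabp1b.1 then lay at 17.24 in TU against 9.03 in AB and 6.98 in WIK. The AB minus TU difference was -8.22 and the TU minus WIK difference 10.26. TU male 2 was the lowest TU male for each of these genes. The calls without it thus show how far the counts depend on this fish and are no test of strain. With TU male 2 left out, TU males were the 2 fish with the highest enterocyte signal, by the mean and by the sum of the markers. TU male 2 also had a signal of 12.01 for the heart gene myl7, against 5.97 to 6.61 in all other fish but AB male 1 (16.24). Without the 4 fish with the highest mean signal of the 4 enterocyte markers, none of the 10 genes was called for strain over both sexes, beside 5.64% of all probes. These 4 fish are also those with the highest fabp1b.1 and fabp1a, so for these genes the removal is no test of strain. The fabp2 difference of AB from WIK was then 4.08 (SE 1.09). The removed fish include TU males 1 and 3, the highest for fabp2, and WIK female 2 (13.18), the highest WIK fish for it. For fabp2 the removal is thus no test of strain either.

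Exocrine pancreas markers moved with strain. All 14 were called between the strains over both sexes (13 of them also without TU female 3), with a summed log2 signal of 13.66 to 17.04 in AB and 16.12 to 21.17 in TU and WIK. Their highest signals were in WIK male 3 and TU male 3 for 13 of 14 genes in that order and for 1 in the reverse order, so they did not follow the order of fabp1b.1. Their part in the strain values was not tested.

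The liver gene fabp10a was bright in every fish. AB males had 17.69, 18.33 and 18.28, and AB females 17.25, 18.1 and 17.86. TU males had 17.54, 18.32 and 18.34, and TU females 17.19, 18.15 and 18.3. WIK males had 17.6, 18.26 and 18.25, and WIK females 17.35, 18.17 and 18.05. Replicate 1, the fish scanned on the first of 4 scan days, was the lowest in 6 of 6 groups, which holds for 2.3% of all probes. It lay 0.77 log2 units below the mean of the other 2 fish of its group (mean difference -0.77, range -1.04 to -0.62). With the scanner's processed signal the difference was -0.82 and with median scaling -1.05, so its direction did not turn. Day 1 and replicate number 1 cannot be told apart here, since replicate 1 of each group and no other fish was scanned on day 1. These fish lay on slide 1 (AB and TU) and slide 2 (WIK), which held no other fish, and fabp10a was low on both.

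Between strains fabp10a differed by -0.06 to 0.03 log2 units over both sexes, and the 95% intervals reached from -0.59 to 0.56. These values are under quantile normalization, which gives equal ranks equal values, and fabp10a ranked 5 to 102 of 43603 probes. Its range over the arrays was 1.16, against 2.89 with the scanner's processed signal and 1.69 with median scaling. Under the quantile normalization used here the male was higher in 9 of 9 pairs by a mean of 0.24 log2 units. Males were higher in 9 of 9 pairs for 1.56% of all probes. At the other fabp10a probe TU male 3 (17.8) lay below TU female 3 (18.04). With the scanner's processed signal the male was higher in 0 of 9 pairs (-0.85) and with median scaling in 5 of 9 (-0.02). With the pairs as a block the value of 0.24 (SE 0.05, 95% interval 0.14 to 0.35) had an adjusted p of 0.0216 in limma, and without the block 0.543 (SE 0.2), and without TU female 3 the difference was 0.32 (limma, adjusted p = 0.391). It was below 2-fold and was not called. The median of all probes shifted between the sexes by -0.22 with the processed signal, and relative to that median fabp10a differed by -0.63. Over the 15716 probes well above background on every array, fabp10a among them, the median shift was 0 with the processed signal. It was 0.03 with quantile normalization and 0.47 with median scaling. Relative to these bright probes, the processed difference of -0.85 was thus not reduced. The median-scaling difference of -0.02 lay below their shift.

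**Figure D4:**
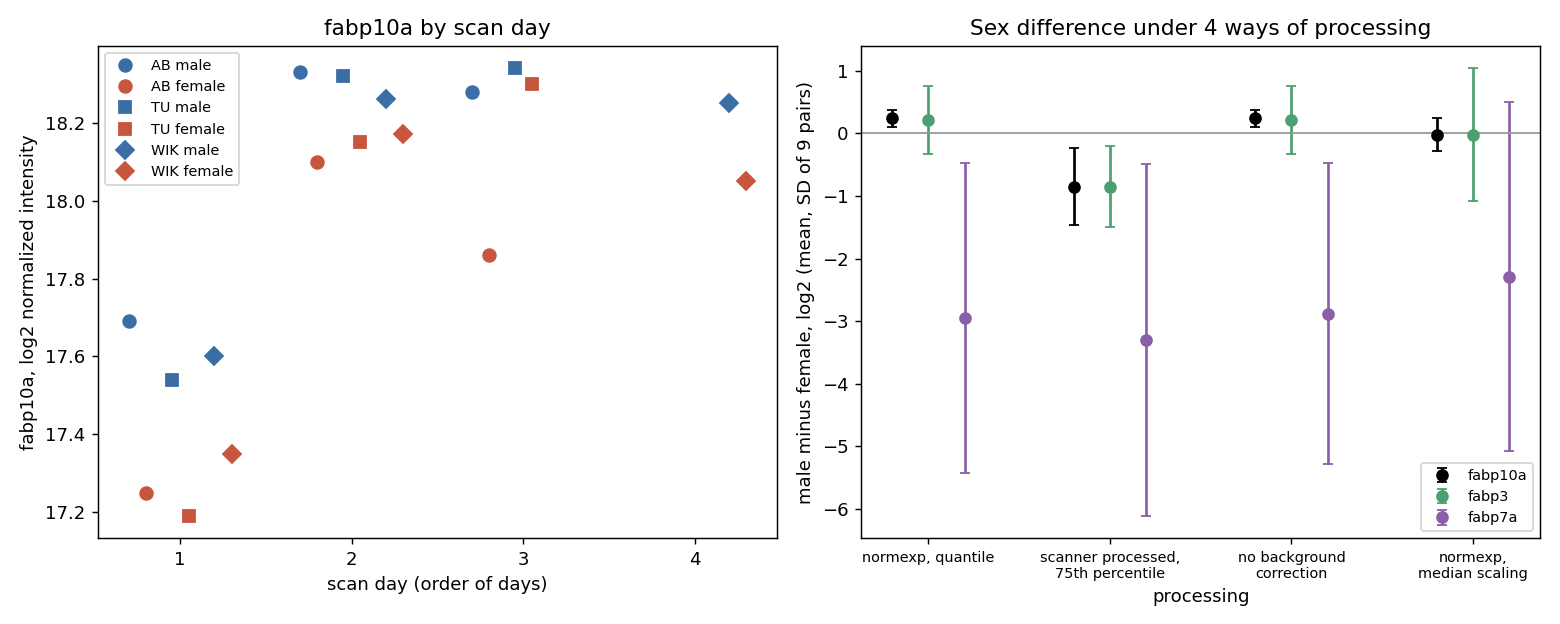
Left, log2 normalized intensity of fabp10a by scan day (x axis, order of days), with strains offset and drawn as circles, squares and diamonds, males in blue and females in red. Right, mean and SD of the 9 male minus female pair differences on the log2 scale for fabp10a, fabp3 and fabp7a under 4 ways of processing. The 6 fish of day 1 lie between 17.19 and 17.69 and all others between 17.86 and 18.34, and the sex difference changes sign with the processing for fabp10a and fabp3 and not for fabp7a.

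The heart-type gene fabp3 was also bright in every fish. Its pooled SD within groups was 0.44 and that of fabp10a was 0.45, both above the median of 0.35 over the 15716 probes well above background on all 18 arrays. AB males had 16.69, 16.06 and 15.27 and AB females 16.28, 15.97 and 16.03. TU males had 16.34, 16.76 and 16.55 and TU females 15.97, 15.75 and 17.03. WIK males had 16.8, 16.83 and 16.34 and WIK females 16.23, 16.39 and 16.07. The highest of all was TU female 3 and the lowest AB male 3, and males and females overlapped in every strain. The 10 muscle and heart markers had a log2 summed signal of 17.34 in AB male 1, the AB fish with the highest fabp3, and of 12.96 in TU male 2, the TU male with the highest fabp3, against 9.81 to 11.21 in the other 16 fish. Without these 2 fish, a removal added after the data had been seen, the sex difference of fabp3 over the strains was 0.06 (SE 0.19, limma, adjusted p = 0.895), and without TU female 3, the fish with the highest erythrocyte signal, it was 0.34 (SE 0.16, adjusted p = 0.218), against 0.21 with all 18 (SE 0.19, adjusted p = 0.587). WIK males 1 and 2 and TU female 3 had a higher fabp3 than AB male 1, at summed muscle and heart signals of 10.3, 10.78 and 10.97. The part of heart or blood RNA in these levels was not tested. In WIK the male mean was higher by 0.42 (SE 0.16, limma, adjusted p = 0.306), which was not called and turned to -0.71 with the scanner's processed signal. Over the strains the male was higher in 7 of 9 pairs by a mean of 0.21, but in 0 of 9 with the processed signal (-0.85) and in 5 of 9 with median scaling (-0.02).

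For fabp11a the lowest, median and highest signals were 9.23, 9.96 and 12.51, with the highest in WIK male 3 and the next in TU female 3 (11.44) and AB male 1 (11.18). The mean difference of the sexes was 0.24 (SE 0.41, 95% interval -0.65 to 1.13, limma, adjusted p = 0.794) and 0.46 without TU female 3 (SE 0.38, adjusted p = 0.511), and WIK lay above AB by 0.75 over both sexes (AB minus WIK -0.75, SE 0.51, adjusted p = 0.397). WIK male 3 and TU female 3 also had the highest and the third highest log2 summed signal of the exocrine pancreas markers, with 21.17 and 19.64. TU male 3 was second with 20.75, against 13.66 to 18.96 in the other 15 fish. The lowest of these, 13.66, was AB male 1. Of the 4 adipocyte markers on the array, lpla (11.43 to 13.88) and pparg (6.51 to 7.84) were well above background on all 18 arrays, cidec on 9 and adipoqb on none. The log2 summed signal of the 3 detected ones ran from 11.59 in TU males to 13.9 in AB males, and it was 13.05 in WIK male 3 and 11.98 in TU female 3. The part of pancreas or adipocyte RNA in the level of fabp11a was not tested. The other member of this group, fabp11b, was well above background only in TU male 3 (6.13) and TU female 3 (6.3) and otherwise ran between 5.91 and 6.17.

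The genes whose signal followed each member most closely were found among 7022 named genes well above background on all 18 arrays. For fabp1b.1 they were tm4sf21b (Pearson correlation 0.956), tcnba (0.948) and folr (0.94), which all had their 4 highest signals in TU males 1 and 3, TU female 2 and WIK female 2. Without the 2 arrays farthest from the median these values were 0.901, 0.905 and 0.857. For fabp2 the nearest was ifi27.6 (0.869), for fabp3 ufd1l (0.836), for fabp7a ifrd1 (0.799), for fabp11a selenou1b (0.767, and 0.429 without the 2 farthest arrays) and for fabp10a pmepa1 (0.943) and the ribosomal protein gene rps19 (0.942). The signal of rps19 was 16.49 to 17 in the 6 fish of scan day 1 and 17.19 to 17.68 in the other 12.

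Other genes of lipid handling are given beside the family. Of 15 genes of fatty acid uptake and activation on the array, 2 were called as higher in males over the strains, the fatty acid transporters slc27a6 (2.68, SE 0.39, limma, adjusted p = 0.00126) and slc27a2a (1.37, SE 0.25, adjusted p = 0.00461). In this group 1 was called as higher in females, the acyl-CoA synthetase acsl5 (-2.25, SE 0.59, adjusted p = 0.0345), whose signals in TU males 1 and 3 were 11.52 and 11.28 against 5.91 in TU male 2. With the scanner's processed signal slc27a2a was no longer called (adjusted p = 0.158), nor was acsl5 with median scaling (adjusted p = 0.105). Without TU female 3 a further acyl-CoA synthetase gene, acsl4a, was called as higher in females (-1.79, SE 0.42, limma, adjusted p = 0.0145). For strain over both sexes 2 of the 15 were called, slc27a2a (AB minus WIK 1.55, SE 0.3, limma, adjusted p = 0.00333, and 0.0858 with the processed signal) and the acyl-CoA binding gene acbd7 (AB minus WIK -1.42, SE 0.35, adjusted p = 0.0145, and 0.38 with median scaling). The median sex difference of the 15 was -0.01, against 0 over all probes. Of 8 retinoid binding proteins, which share the fold of the family, 2 were called as higher in males, rbp2b (1.92, SE 0.39, limma, adjusted p = 0.0101) and rbp5 (1.75, SE 0.2, adjusted p = 0.000238), and the median was 0.14. For strain over both sexes 2 of these 8 were called, rbp2a (AB minus TU -1.86, SE 0.32, limma, adjusted p = 0.00141) and rbp5 (AB minus WIK -1.41, SE 0.25, adjusted p = 0.00157, and 0.258 with median scaling).

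Of 15 nuclear receptors of lipid sensing, which include the receptors that fatty acid binding proteins can deliver ligands to, 0 were called for sex over the strains in limma and 3 for strain over both sexes: rxrgb, which lay lower in AB than in TU by 1.86 (difference -1.86, SE 0.22, limma, adjusted p = 9.49e-05), rxrga (1.42 higher in AB than in TU, SE 0.17, adjusted p = 0.000106) and hnf4b (AB minus WIK -1.21, SE 0.24, adjusted p = 0.00345, and 0.23 with median scaling). Of 5 bile acid genes on the array 2 were called for sex over the strains, cyp7a1, the first enzyme of bile acid synthesis, as higher in females (-2.38, SE 0.59, limma, adjusted p = 0.0285, and 0.0541 with the pairs as a block) and cyp8b1.1 as higher in males (1.01, SE 0.21, adjusted p = 0.0105), which fell short of 2-fold with the scanner's processed signal (0.98). For strain over both sexes 1 of the 5 was called, nr0b2a (AB minus TU -3.42, SE 0.9, limma, adjusted p = 0.0206), whose highest signals were in the 4 fish with the highest fabp1b.1 and whose call in the F test was lost without TU female 3. The other genes named from these 4 lists kept their calls without TU female 3. In that fit cyp7a1 (AB minus WIK 2.04, limma, adjusted p = 0.0194) and rbp2b were also called for strain over both sexes by the F test.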

How the data were processed

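The authors deposited, for each of 18 arrays, the Feature Extraction output of the scanner, in which every spot has a linear intensity and a local background, and a normalized log2 table with a single entry per accession. The median spot intensity was corrected with normexp (offset 50) in limma 3.58.1 (R 4.3.3) and quantile-normalized, and outlier spots and 1417 control spots were left out. Median spot intensity was 36 to 70.5 over a background of 22 to 32, and the number of arrays limits the precision. The deposited log2 table correlated at 0.9925 to 0.9987 with these values over 28404 accessions and served as an alternative. Probes were named by accession through the RefSeq gene table of GRCz12tu or else from the paper's supplementary lists (60.2% of probes in all). No probe or genome sequence was used here. The sexes were fitted within strains and the strains within sexes. The mean over strains, the mean over sexes and the fits without some fish were added after the data had been seen. The genes, lists and tests were chosen with earlier results of these data known. All 10 genes are named, and from other lists at most the 4 called genes with the largest change. Same-numbered fish of a strain share slide and scan day in the file headers, and the deviations of their pairs from group means correlated at -0.09 to 0.36 in AB, 0.16 to 0.48 in TU and 0.12 to 0.29 in WIK. The fits were tested on simulated data. Figures were drawn with matplotlib in Python.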

Additional observations from a re-analysis of the deposited data

How the results depend on the processing

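The counts of called genes were recomputed with other background corrections, scalings, probe rules, filters, fold thresholds, blocks and the deposited log2 table. For sex within strains the count of 0 became 1 (fabp7a) in AB when all 18 arrays were fitted together, beside 3.69% of all probes. The count of 1 for sex over the strains became 0 with median scaling, beside 4.27% of all probes. It also became 0, beside 1.23%, without the 4 fish with the highest mean signal of 4 of the 9 enterocyte markers. This alternative was chosen after seeing the data, and the fish are also those with the highest fabp1b.1. For strains over both sexes the count became 1 (fabp11b) with the scanner's processed signal, beside 19.8%. With a fish left out in turn the count was 0 to 4 for strains in males, 0 to 3 for strains over both sexes, 0 to 1 for the interaction of AB with TU and 0 to 1 for that of TU with WIK, with every change coming from TU male 2, and it stayed at 1 for sex over the strains and at 0 elsewhere. The sex difference of fabp3 in WIK turned from 0.42 to -0.71 with the processed signal. With the replicate block the count stayed at 1 for sex over the strains and at 0 for the other comparisons, and the block changed no call among the 10 genes. For fabp7a over the strains the adjusted p ran from 0.007 to 0.0555 over the processing alternatives and from 0.00489 to 0.0269 with a fish left out. The cause of these changes was not tested. Dim genes (fabp1a, fabp6, fabp7b and fabp11b) lay near background, where the offset of the normexp correction used here can understate a difference. With the scanner's processed signal the log2 range of each of these genes over the arrays was wider. It rose from 0.39 to 3.29 for fabp11b and from 3.17 to 8.93 for fabp1a. The range was also wider for the bright genes fabp10a (1.16 to 2.89) and fabp3 (1.76 to 2.98). The part of noise in the wider ranges was not tested. The fabp11b call with that signal is thus of a gene well above background on only 2 arrays.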
